A study of Rattus norvegicus with 6 samples.

Results

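The BTG/TOB genes encode a small family of antiproliferative proteins, and 5 of them, Btg1, Btg2, Btg3, Tob1 and Tob2, were examined in NRK-52E cells. NRK-52E is an established line of wild-type epithelial cells from the rat kidney. STZ (streptozotocin) is a nitrosourea linked to glucosamine that alkylates DNA. RNA was sequenced from 3 Control samples, which were given vehicle, and from 3 STZ samples, which were kept in 10 mM of STZ for 24 h. The 5 genes were chosen by gene symbol among the 18930 rows of the deposited count table, with the read counts of STZ and Control already in view. Their differences between the groups are therefore given as a description, with a standard error or an interval and with no p-value. Each symbol matched 1 row, and all 5 were among the 11870 genes that passed the filter on low counts.

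Proteins of this family share a BTG domain at the amino end, through which they hold the deadenylase subunits Cnot7 and Cnot8 of the CCR4-NOT complex. This complex shortens the poly(A) tails of mRNAs, and shortened mRNAs are translated less and degraded sooner. Overexpression of a BTG/TOB protein slows cell division, and several members are linked to quiescence. Btg2, first found in rat as the immediate early gene Pc3, is also a classical target of p53, the transcription factor that responds to DNA damage.

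Total counts were between 10430924 and 12737131 in Control and between 11658253 and 15191349 in STZ, so the STZ libraries were on the whole the deeper ones. Levels are given as CPM, the reads of a gene per 1000000 reads of its library, scaled with the TMM factors of edgeR, which lay between 0.98757 and 1.0179. The sources do not say whether the 3 samples of a group were separate cultures. SDs therefore describe the spread between these samples, which may be technical. Standard errors and intervals of log2 fold changes come from the fit over all genes, which also draws on the spread of other genes, and have the same limit. Of 8 markers of kidney epithelium, Krt8, an epithelial keratin, reached 24040 reads in a sample, Cdh1 had 16 to 35 reads, and the others had at most 4 reads or no row in the table. Of 6 markers of the differentiated proximal tubule, Aqp1 had 66 to 167 reads, and Lrp2 and Slc34a1 had at most 4. The summed level of the epithelial list was 1120 to 1190 CPM in Control and 1580 to 1590 in STZ. Krt8 made up nearly all of it, with means of 1161 and 1584 CPM. Cdh1 went the other way, with means of 2.61 CPM in Control and 1.62 in STZ, although its groups overlapped. The 6 fibroblast and smooth muscle markers, of which 5 had a row, summed to 155 to 163 CPM in Control and 98.9 to 112 in STZ. Most of that fall was in Col3a1, with means of 54.5 and 21 CPM. The proximal tubule list summed to 9.89 to 16.8 CPM in Control and 5.66 to 6.75 in STZ. Aqp1 made up most of it, with means of 13.2 and 5.36 CPM. The leukocyte and endothelial lists each summed to at most 2.66 CPM in any sample. These sums and means were scaled by library total only. What part these shifts have in the values below was not tested. In bulk RNA, fewer cells of a kind and less RNA per cell cannot be told apart.

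Btg2 rose 3.37-fold, Tob1 1.57-fold, Tob2 1.29-fold and Btg3 1.22-fold, and the interval of Btg1 spanned no change. In the fit across all genes (edgeR's quasi-likelihood test, Benjamini-Hochberg adjusted p under 0.05), 4 of the 5 members were called higher, where 25.9% of all genes tested were called higher. Averaged over the samples, all 5 had over 500 normalized counts, and among the 5660 genes at or above that level 33% were called higher and 28.6% lower. With the fold-change threshold of the study added (absolute log2 fold change over 1), Btg2 was the 1 member called, and it was higher, where 2.26% of all genes tested were called higher past that threshold. The groups did not overlap, with STZ higher, for the same 4 members, as for 28.6% of all genes. Nothing is read from these counts, since the contrast was known when the members were chosen.

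**Figure D1:**
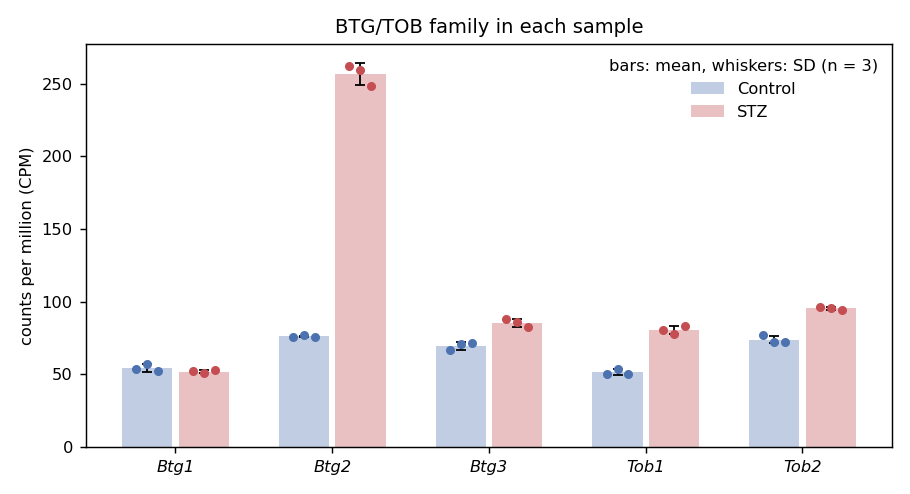
Level of each BTG/TOB gene in CPM (vertical axis) in the 3 Control samples (blue points) and 3 STZ samples (red points), with bars for the mean and whiskers for the SD. Btg2 rose from 76.0 to 257 CPM, Btg3, Tob1 and Tob2 rose by smaller amounts, and the Btg1 points of the groups overlapped.

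Btg2 had 802, 843 and 971 reads in the Control samples (replicates 1, 2 and 3) and 3606, 2986 and 3717 in the STZ samples, in the same order. Scaled, these were 75.6, 76.7 and 75.7 CPM in Control and 262, 259 and 248 CPM in STZ. Every STZ sample lay above every Control sample, and the gap between the lowest STZ and the highest Control value was 171 CPM. Means were 76.0 ± 0.577 CPM in Control and 257 ± 7.49 CPM in STZ (SD, n = 3 each). The log2 fold change was 1.75 (standard error 0.04, 95% interval 1.67 to 1.84), and 69 of the 11870 genes tested had a larger one.

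Btg1, the closest relative of Btg2 and a target of FoxO factors in other cells, had 53.9, 57.2 and 52.1 CPM in the Control samples, by replicate. In the STZ samples it had 51.9, 50.6 and 52.8 CPM. The groups overlapped, since STZ replicate 3 stood above the lowest Control sample. Means were 54.4 ± 2.59 CPM in Control and 51.7 ± 1.11 CPM in STZ (SD, n = 3 each), a log2 fold change of -0.07 (standard error 0.06, 95% interval -0.18 to 0.05). The interval corresponds to a fold between 0.880 and 1.03, so a rise of the size seen for the other members lay outside it.

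Tob1 encodes a longer protein whose tail also holds the poly(A)-binding protein, and which restrains Smad signaling downstream of bone morphogenetic proteins. Its Control samples, in replicate order, had 50.2, 53.7 and 50.4 CPM, and its STZ samples 80.2, 78.0 and 82.9 CPM. The groups were 24.3 CPM apart at their nearest samples. Means were 51.4 ± 2.01 CPM in Control and 80.4 ± 2.46 CPM in STZ (SD, n = 3 each), and the log2 fold change was 0.65 (standard error 0.05, 95% interval 0.54 to 0.76).

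Tob2, the paralog of Tob1, stood at 76.9, 72.5 and 72.1 CPM in the Control samples, again by replicate, and at 96.1, 95.7 and 94.1 CPM in the STZ samples. All STZ values were higher than all Control values, by at least 17.2 CPM. Means were 73.8 ± 2.67 CPM in Control and 95.3 ± 1.02 CPM in STZ (SD, n = 3 each), and the log2 fold change was 0.37 (standard error 0.05, 95% interval 0.27 to 0.47). The interval of Tob2 lay wholly under that of Tob1.

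Btg3, whose product binds the transcription factor E2f1 and the checkpoint kinase Chek1, had 66.6, 70.9 and 71.4 CPM in the Control samples. The STZ samples had 87.7, 85.7 and 82.7 CPM. Here too the groups were apart, by 11.3 CPM at their nearest samples, the narrowest gap of the 4 members that were called. Means were 69.6 ± 2.66 CPM in Control and 85.4 ± 2.55 CPM in STZ (SD, n = 3 each), and the log2 fold change was 0.29 (standard error 0.05, 95% interval 0.19 to 0.39). The intervals of Btg3 and Tob2 overlapped.

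**Figure D2:**
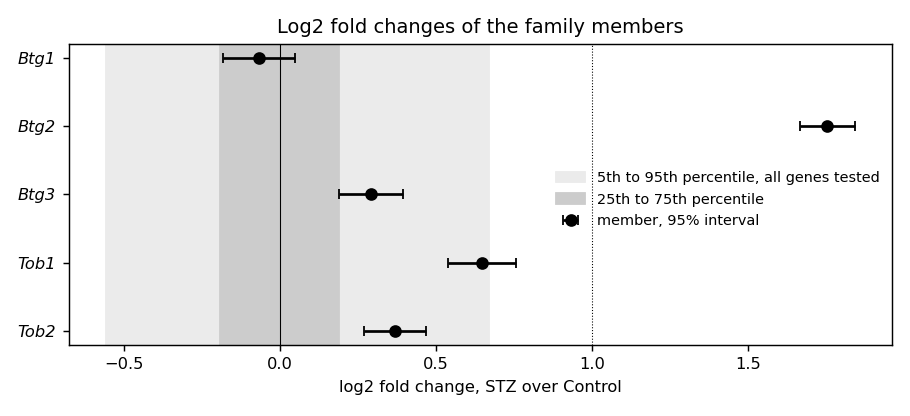
Log2 fold change of each member, STZ over Control (horizontal axis), with its 95% interval as whiskers, over bands for the middle ranges of all 11870 genes tested and a dotted line at 1. Btg2 at 1.75 lies far outside the 5th to 95th percentile band of -0.56 to 0.67, Tob1 at 0.65 lies near its edge, and Btg1 at -0.07 lies in the 25th to 75th percentile band.

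The summed level of the family was 323, 331 and 322 CPM in the Control samples and 578, 569 and 561 CPM in the STZ samples, by replicate. Means were 325 ± 5.01 CPM in Control and 569 ± 8.74 CPM in STZ (SD, n = 3 each), a ratio of 1.75. Of the rise of 244 CPM, Btg2 made up 74.0%, Tob1 11.9%, Tob2 8.79% and Btg3 6.45%, while the change of Btg1 came to -1.09%. Btg2 thus carried most of the added reads.

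Shares of the family's reads do not depend on the scaling of the libraries, although longer mRNAs give more reads and the shares are not molar. Btg2 took 23.4%, 23.2% and 23.5% of these reads in the Control libraries and 45.3%, 45.6% and 44.2% in the STZ libraries. The exact 95% binomial intervals of these shares, which cover counting error only, reached at most 24.9% in Control and at least 43.2% in STZ. The share of Btg1 fell from 16.7 ± 0.544% to 9.09 ± 0.284%, that of Btg3 from 21.4 ± 0.794% to 14.99 ± 0.220%, and that of Tob2 from 22.7 ± 0.985% to 16.7 ± 0.1004% (SD, n = 3 each). Tob1 held 15.8 ± 0.380% in Control and 14.1 ± 0.588% in STZ (SD, n = 3 each). None of these 4 genes was called lower in its own level.

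**Figure D3:**
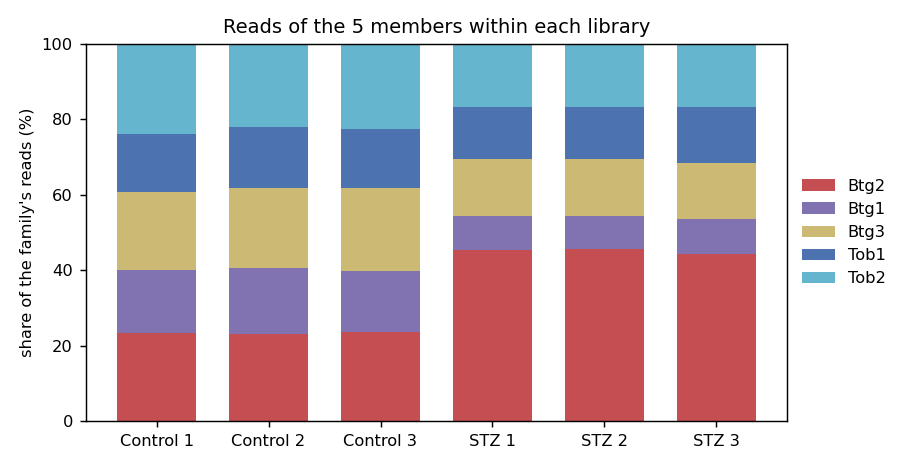
Share of the reads of the 5 members that each gene took (vertical axis, percent) in each of the 6 libraries (horizontal axis). Btg2, the lowest segment, took 23.2% to 23.5% in the Control libraries and 44.2% to 45.6% in the STZ libraries.

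The members were also set against Btg1, the member with no call, within each library, which leaves library scaling out. For each read of Btg1 there were 1.40, 1.34 and 1.45 reads of Btg2 in the Control libraries and 5.05, 5.13 and 4.699 in the STZ libraries, by replicate. The ratio of Tob1 to Btg1 was 0.946 ± 0.0192 in Control and 1.55 ± 0.0159 in STZ (SD, n = 3 each). Those of Tob2 to Btg1 were 1.36 ± 0.0827 and 1.84 ± 0.0545, and those of Btg3 to Btg1 were 1.28 ± 0.0766 and 1.65 ± 0.0727. For all 4 ratios, every STZ library lay above every Control library. Btg1 was taken as the reference with its level in both groups known, and the 4 other members were already apart between the groups. This separation therefore restates the differences given above. Of the 10 pairs of members, the ratio of Btg3 to Tob2 was the one whose values overlapped between the groups. Its log2 change was -0.07 with a standard error of 0.06, against 0.28 with a standard error of 0.06 for Tob1 over Tob2.

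The spread within a group was not used in choosing the members. The coefficient of variation between the 3 samples was 0.760% to 4.76% in Control and 1.07% to 3.07% in STZ. Counting error alone would give between 3.40% and 4.13% in Control and between 1.71% and 3.82% in STZ. Btg2 in STZ, with 2.92% against 1.71%, was the most above its counting error. The fitted biological coefficient of variation lay between 2.94% and 3.14% for the 5 genes. Each was under the median of the 1000 genes of nearest level, which was 3.04% to 3.27%.

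Genes with the most similar course over the 6 samples were found by the root mean square difference of log2 CPM values, each centered on the mean of its gene, among 9600 other named genes with a mean of at least 50 normalized counts. For Btg2 they were Anxa8 (difference 0.0557), Cdc42bpg (0.0631) and Plk2 (0.0666), with log2 fold changes of 1.75, 1.82 and 1.74. Only 9 of the 9600 genes came within 0.1 of Btg2, whereas 274 did for Tob1, 1193 for Tob2, 1613 for Btg3 and 3116 for Btg1. The nearest to Tob1 were Timp1 (0.0280) and Ehd4 (0.0355), and to Tob2 Slc66a3 and Prkcd (0.0213 each). The nearest to Btg3 were Araf (0.0201) and Atp1b3 (0.0215), and to Btg1 Tomm7 (0.0174) and Tm9sf1 (0.0186). Likeness here mostly restates the size of the difference between the groups, because the 6 samples form 2 groups.

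The promoter of Btg2, the member that rose most, is shown beside that of Btg1, the relative that was not called, as the 250 bases before the transcript start in RefSeq (build GRCr8, 5′ to 3′ on the strand of the gene). The reads were counted on the older build Rnor6, and start sites were not measured here. Btg2 lies on the minus strand at chr13:48087691-48087940 and Btg1 on the plus strand at chr7:33227899-33228148. Capitals mark a match to the cAMP response element (CRE), TGACGTCA.
Btg2: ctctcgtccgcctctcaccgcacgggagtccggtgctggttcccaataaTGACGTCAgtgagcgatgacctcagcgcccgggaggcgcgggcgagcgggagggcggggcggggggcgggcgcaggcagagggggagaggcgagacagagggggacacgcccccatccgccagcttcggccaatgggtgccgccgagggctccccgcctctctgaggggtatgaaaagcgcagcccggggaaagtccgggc
Btg1: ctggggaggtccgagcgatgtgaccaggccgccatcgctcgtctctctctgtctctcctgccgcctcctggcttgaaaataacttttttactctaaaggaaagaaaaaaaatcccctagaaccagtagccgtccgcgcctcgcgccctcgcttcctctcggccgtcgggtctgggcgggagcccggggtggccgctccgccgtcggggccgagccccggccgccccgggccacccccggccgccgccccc

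Windows from 250 bases before to 50 bases after the start were found for 5 of 5 members and searched on both strands for 4 motifs. The CRE lay at positions -201 to -194 from the start of Btg2 and in no other member, and 1.83% of 33469 rat promoters of the same length hold it. The p53 half-site (the consensus with no mismatch) was matched once, in Tob1 at positions -56 to -47, as GAGCTAGTCC, and 7.98% of promoters hold a match. The CArG box (1.64% of promoters) and the FoxO core GTAAACA (3.78%) were matched in no member. A match is a string of letters and no measured site. The absence of one covers only this window and the exact pattern searched, so sites with a mismatch would be missed. The GC content was 67.3% for Btg1, 69.7% for Btg2, 78.7% for Btg3 and 63.3% for Tob2, against a median of 51.67% over all promoters. Tob1 stood apart with 40% GC and 4 CpG dinucleotides, where the other members had 27 to 55. Its RefSeq record begins after a thymine-rich run that ends in ag, as internal exons do, and whether its window is a promoter was not tested. No other gene of the GRCr8 annotation overlaps the span of any of the 5 genes.

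**Figure D4:**
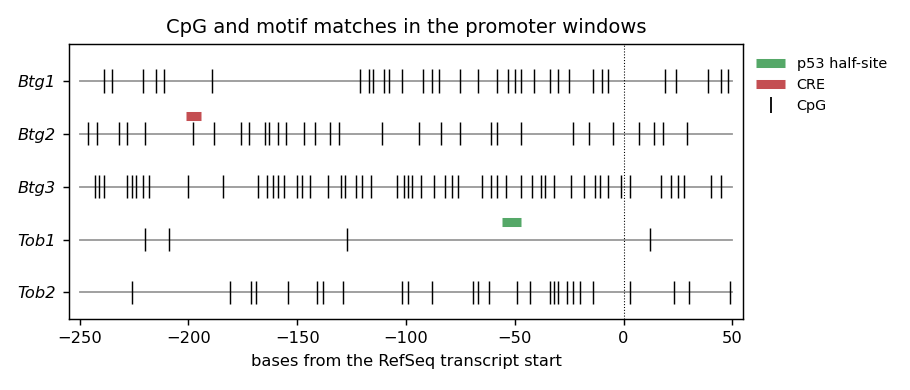
Positions of CpG dinucleotides (black ticks) and motif matches (colored blocks) relative to the RefSeq transcript start (horizontal axis, bases) in the window of each member. That of Tob1 holds 4 CpG, the other windows hold 27 to 55, and the matches are the CRE in Btg2 and the p53 half-site in Tob1.

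The subunits of CCR4-NOT, through which the family acts on mRNA, differed between the groups by small amounts. Of 11 subunits tested, 7 were lower and 1 was higher (edgeR's quasi-likelihood test, adjusted p under 0.05 over all genes), where 25.1% of all genes were called lower and 25.9% higher. Among genes with a mean of at least 500 normalized counts, 28.6% were called lower and 33% higher. The median log2 fold change of the list was -0.15, between -0.45 and 0.24, and that of all genes was -0.01. Cnot6, a catalytic deadenylase, fell by 0.45 on the log2 scale (standard error 0.04, edgeR adjusted p = 2.03e-11). Cnot7, the deadenylase that binds BTG/TOB proteins directly, fell by 0.35 (standard error 0.06, edgeR adjusted p = 2.84e-06). For its counterpart Cnot8 the log2 value was 0.01 (standard error 0.05, edgeR adjusted p = 0.823). Cnot9 fell by 0.30, and Cnot4, a ubiquitin ligase, rose by 0.24. The count of 7 lower varied with the fit. It was 4 without Control replicate 1, 5 without STZ replicate 2 or with the DESeq2 Wald test, and 8 with upper quartile or library size only.

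Of the other deadenylases and the poly(A)-binding proteins, all 6 tested were lower with an adjusted p under 0.05 (edgeR). This compares with 25.1% of all genes and 28.6% of genes with a mean of at least 500 normalized counts. The median log2 fold change of the list was -0.23. The count was 4 without STZ replicate 2, and 5 without Control replicate 1 or 2 or with the DESeq2 Wald test. Pabpc4, a cytoplasmic poly(A)-binding protein, Pabpn1, its nuclear counterpart, and Pan2, a subunit of the PAN2-PAN3 deadenylase, had log2 fold changes of -0.32, -0.29 and -0.25.

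Of 16 other adaptors that bring CCR4-NOT to mRNAs, 14 were tested, and 3 of these were higher and 7 lower. Over all genes, 25.9% were higher and 25.1% lower. The median log2 fold change of the adaptors was -0.16. Cpeb4 and Cpeb2, which bind cytoplasmic polyadenylation elements, rose by 0.57 and 0.48 on the log2 scale (standard errors 0.05 and 0.10). Zfp36l1 and Zfp36l2, which bind AU-rich elements, and Pum2, a Pumilio protein, had log2 fold changes of -0.37, -0.30 and -0.30. Tnrc6b, of the microRNA pathway, had 0.12 (edgeR adjusted p = 0.0309), a call lost in 7 of 14 alternative fits.

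Among other genes tied to the family, 6 of 8 tested were lower and 1 was higher, against the same 25.1% and 25.9% of all genes, with a median log2 fold change of -0.20. The count lower was 4 without Control replicate 1, without STZ replicate 2 or with the DESeq2 Wald test. Prmt1, the arginine methyltransferase that binds Btg1 and Btg2, fell by 0.51 on the log2 scale (standard error 0.05, edgeR adjusted p = 1.51e-12). Erbb2, the receptor that gave Tob its name, and Smad9 had log2 fold changes of -0.32 and -0.35, and Smad1 rose by 0.22. Ccnd1, whose transcription Btg2 is known to repress, stood at a log2 value of 0.04 (standard error 0.04, edgeR adjusted p = 0.421). No row of the count table matched E2f1, and Hoxb9, a partner of Btg1 and Btg2, had at most 1 read per sample.

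Btg2 belongs to both the p53-regulated genes and the immediate early genes, and these lists were set beside it. Of 11 other p53-regulated genes that restrain growth, 10 were higher (25.9% of all genes were), 6 of them with a log2 fold change over 1, and the median was 1.30. Cdkn1a, which encodes the kinase inhibitor p21, Plk2, a polo-like kinase, and Ccng1, cyclin G1, rose by 2.49, 1.74 and 1.66 on the log2 scale. Genes of this list, and of the other lists around the family, were picked with earlier results known. Their counts and adjusted p-values are therefore no independent evidence of a direction.

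Immediate early genes did not move as one. Of 20 listed, 18 had a row in the count table and were tested. Of these, 11 were higher and 4 lower, beside 25.9% and 25.1% of all genes, with a median log2 fold change of 0.28 and values between -1.14 and 2.47. Fosl1, an AP-1 subunit, rose by 2.47 on the log2 scale (standard error 0.15, edgeR adjusted p = 2.73e-18), from 23 to 52 reads per Control sample to 229 to 290 per STZ sample. Atf3, a stress-induced factor of the ATF family, and Ier5 rose by 1.71 and 0.99. Fos, another AP-1 subunit, fell by 1.14 (standard error 0.06, edgeR adjusted p = 6.12e-19), and Egr1 and Myc had log2 fold changes of -0.99 and -0.33.

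Of 11 genes of quiescence and targets of FoxO, to which Btg1 belongs, 1 was higher and 4 were lower, beside 25.9% and 25.1% of all genes, with a median log2 fold change of -0.05. Without Control replicate 1 or 3, 2 were higher. Pdk4, a kinase that restrains pyruvate dehydrogenase, rose by 1.23 on the log2 scale (standard error 0.24, edgeR adjusted p = 3.72e-05), from 15 to 26 reads per Control sample to 38 to 68 per STZ sample. Rbl2, a pocket protein of resting cells, Pik3ip1, an inhibitor of PI3 kinase, and the factor Foxo4 had log2 fold changes of -0.43, -0.38 and -0.37.

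**Figure D5:**
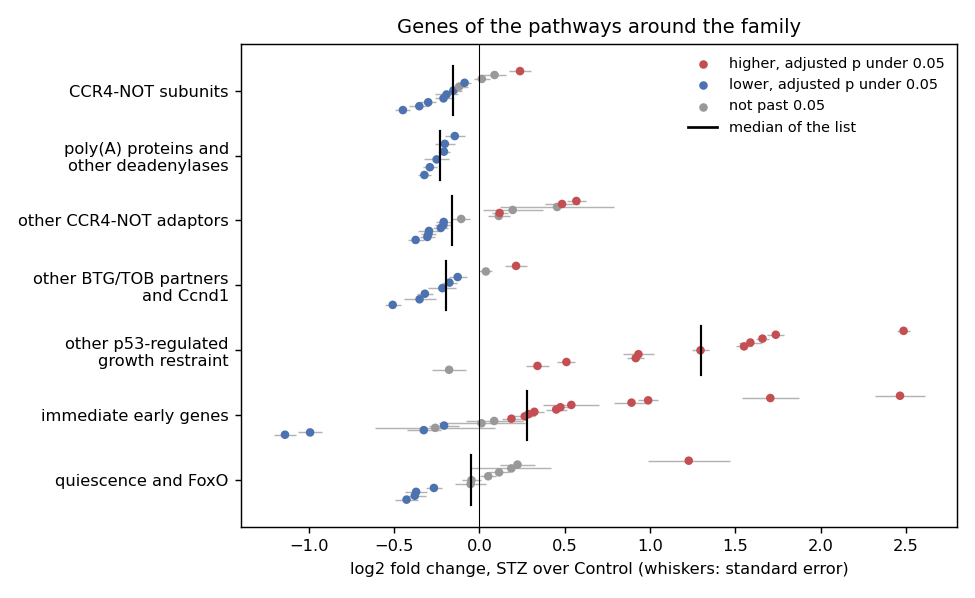
Log2 fold change, STZ over Control (horizontal axis), of each gene tested in the 7 lists around the family, with whiskers for the standard error, colors for the call (edgeR, adjusted p under 0.05) and a black bar for the median of each list. The list medians run from -0.23 for the poly(A) proteins and other deadenylases to 1.30 for the other p53-regulated genes.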

How the data were processed

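RNA of 3 Control and 3 STZ samples of NRK-52E cells was sequenced from stranded mRNA libraries. The authors mapped the reads to Rnor6 with STAR 2.7.10a, assigned uniquely mapped reads to genes with featureCounts (Subread), and deposited raw counts. The strand setting and the annotation release are not given in the sources used here. Samples were grouped by their labels.

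All genes were fitted at once with edgeR 4.0.16 in R 4.3.3 (TMM, filterByExpr at its defaults, quasi-likelihood test, Benjamini-Hochberg adjustment). This left 11870 of 18930 genes. Intervals use the standard error, taken as the absolute log2 fold change over the square root of F. With 3 samples per group the smallest exact permutation p is 0.1, so none is given. Alternatives were DESeq2 1.42.0 (test and size factors), limma-voom 3.58.1, other scalings and filters, the replicate block, and each sample left out.

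On counts simulated for this comparison (11782 genes tested), 99 of 100 genes changed by 1.5 on the log2 scale and 85 of 100 changed by 0.5 were recovered, with 8 false calls. Every simulated gene had the same dispersion and 200 genes were changed, where the real fit called 3070 higher and 2976 lower. These rates may therefore differ in the real data. Replicates were further apart than counting error allows (chi-square per degree of freedom of at least 1.85).

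The members, gene lists and tests were chosen with earlier results of these data known. Genes named are the members, up to 3 genes per direction with the largest log2 fold changes among those called in each list, and the 3 (Btg2) or 2 (others) genes nearest to each member. Cnot8, Ccnd1, Hoxb9 and the marker genes were named outside this rule, after their values were seen. E2f1, which had no row, was also named outside it. Promoters came from RefSeq tables (GRCr8).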

Additional observations from a re-analysis of the deposited data

How the results depend on the processing

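Over 70 refits of members (14 alternatives for each of 5 genes), no log2 fold change reversed, and 69 stayed within 1 SD of the replicates. The exception was Btg2 with library size only, at 1.72 in place of 1.75. Ranges were 1.72 to 1.78 for Btg2, 0.61 to 0.68 for Tob1, 0.34 to 0.40 for Tob2, 0.26 to 0.32 for Btg3 and -0.10 to -0.03 for Btg1. In all 14 fits 1 member passed both thresholds and 4 passed the adjusted p alone. These fits reuse the same samples and the contrast was known when the members were chosen, so the counts describe dependence on processing only. With a log2 fold change over 1 required as well, calls in the lists became 0 higher and 0 lower for CCR4-NOT, the adaptors and the other partners, 0 lower for the poly(A) list, 6 higher for the p53-regulated genes, 2 higher and 1 lower for the immediate early genes, and 0 lower for the quiescence list, since this threshold removes smaller changes. With one sample left out, 4 to 7 CCR4-NOT subunits were lower, with 4 without Control replicate 1, and 1 to 2 quiescence genes were higher, with 2 without Control replicate 1 or 3. The poly(A) list had 4 to 6 lower, with 4 without STZ replicate 2, and the other partners 4 to 5, with 4 without Control replicate 1 or STZ replicate 2. The DESeq2 Wald test gave 5 lower for the poly(A) list, 4 for the other partners and 5 for CCR4-NOT. With the fold threshold, 2 immediate early genes in place of 1 were lower without Control replicate 1, without STZ replicate 1, with upper quartile or with library size only, and 3 in place of 2 were higher without Control replicate 1, 2 or 3 or STZ replicate 3. The cause was not tested. Among the called genes named from the lists, 413 of 420 refits kept the call, and the 7 lost calls were all of Tnrc6b. Low counts limit Fosl1, Atf3 and Pdk4, with at most 52 reads per Control sample.

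Control and STZ share replicate numbers. Deviations of same-numbered samples from their group means correlated by 0.0339, -0.0337 and 0.105 (over 10341 genes, not independent replicates). Of 6 samples, 3 correlated best with their own number. This did not show a pairing, and so few samples cannot exclude one. When the replicate block was fitted, 3139 genes were higher and 3060 lower, against 3070 and 2976 without it. Btg2 stood at 1.75 and Tob1 at 0.65 with the block, which changed no call among the members and the called genes named from the lists. Other genes named were not followed across the alternatives.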

Other observations

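Gdf15, a secreted p53-regulated cytokine of the TGF-beta family, was listed with the growth-restraining genes but had too few reads to be tested. The Control samples had 1, 0 and 1 reads and the STZ samples 7, 5 and 12 reads, by replicate. It was named after its values were seen. The adaptors Cpeb1 and Nanos3 had at most 1 read in any sample.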
